A study of Rattus norvegicus with 5 samples.

Results

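The genes described here are Il33, Il1rl1 and Il1rap, which encode the cytokine IL-33, its receptor ST2 and the co-receptor that ST2 pairs with. The 3 genes were taken by symbol from the 30017 gene symbols counted in every cell, and each symbol had 1 row (ENSRNOG00000016456, ENSRNOG00000014835 and ENSRNOG00000001928). They were chosen by their UMI levels and shares of cells across cell types and times in these same libraries, so the levels and ratios below are a description and carry no test. The study profiled single cells of rat skin by droplet RNA sequencing of transcript 3′ ends, with 1 library for non-irradiated skin (control) and 1 library each for irradiated skin on days 7, 14, 28 and 60 (7 d to 60 d).

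Per the study's methods the rats were male Sprague-Dawley (SD) animals, 4 weeks old when obtained, and no genetic change is given for any group. For the skin of days 7, 14 and 28 the methods give a single 30 Gy electron beam dose to shaved buttock skin, with the rest of the body behind lead. The control was a separate piece of non-irradiated skin. The only cell isolation described, written for eyelid skin, digests with collagenases, dispase and trypsin and sorts out debris and dead cells, and whether the rat skin was handled in the same way is not given in the sources used here. The sources used here do not give the number of animals in a library, and for day 60 only the label of irradiated skin was at hand, with no dose. With 1 library a group, irradiation cannot be told apart from the animal, its age at collection, the digestion or the library. No p-value is given. Intervals are exact 95% intervals and cover counting error only.

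IL-33 belongs to the IL-1 family and is known as an alarmin. It is stored in the nucleus of stromal, endothelial and epithelial cells and is set free when these cells are damaged, after which it binds ST2 on the surface of mast cells, group 2 innate lymphoid cells, regulatory T cells and other cells. ST2 then recruits the chain encoded by Il1rap, which other IL-1 family receptors also use, and the signal runs through MyD88 and the IRAK kinases to NF-kB. Il1rl1 also gives a short secreted form of ST2 that acts as a decoy for IL-33. Counts of transcript ends per gene do not separate the secreted form from the membrane form.

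The promoter windows are shown because each member had its own pattern over cell types. RefSeq (GRCr8) gave windows of 300 bases, from 250 before to 50 after a start site, for all 3 members. Il33 has separate start sites with windows at chr1:237115323-237115622 and chr1:237134696-237134995, both on the plus strand. The Il1rl1 window is chr9:50203388-50203687 on the plus strand, and the first of the overlapping Il1rap windows is chr11:87704293-87704592 on the minus strand. Capitals mark matches to the motifs searched, and each window runs 5′ to 3′ along its gene.
Il33 window 1: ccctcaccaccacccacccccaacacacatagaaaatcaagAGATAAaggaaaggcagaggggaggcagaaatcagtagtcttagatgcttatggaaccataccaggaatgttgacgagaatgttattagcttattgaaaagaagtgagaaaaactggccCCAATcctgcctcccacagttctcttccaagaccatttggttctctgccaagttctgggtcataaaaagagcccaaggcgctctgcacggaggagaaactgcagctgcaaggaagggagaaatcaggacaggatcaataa
Il33 window 2: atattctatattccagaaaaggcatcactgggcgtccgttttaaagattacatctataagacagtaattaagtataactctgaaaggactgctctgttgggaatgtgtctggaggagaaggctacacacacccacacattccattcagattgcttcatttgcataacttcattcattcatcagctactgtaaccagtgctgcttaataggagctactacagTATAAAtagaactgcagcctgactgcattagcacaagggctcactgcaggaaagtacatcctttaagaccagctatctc
Il1rl1 window: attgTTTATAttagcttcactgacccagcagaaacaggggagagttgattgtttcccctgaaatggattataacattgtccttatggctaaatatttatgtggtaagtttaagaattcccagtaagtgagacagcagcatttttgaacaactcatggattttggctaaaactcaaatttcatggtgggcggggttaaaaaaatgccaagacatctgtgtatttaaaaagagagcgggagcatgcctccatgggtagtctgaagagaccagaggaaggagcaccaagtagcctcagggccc
Il1rap window 1: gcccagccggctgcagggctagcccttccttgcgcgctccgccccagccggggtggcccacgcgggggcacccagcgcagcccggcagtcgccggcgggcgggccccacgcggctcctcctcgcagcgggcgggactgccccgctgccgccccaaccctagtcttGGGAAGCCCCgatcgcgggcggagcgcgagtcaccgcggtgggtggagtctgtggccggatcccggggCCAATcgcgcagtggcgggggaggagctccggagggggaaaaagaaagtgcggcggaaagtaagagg

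Motifs were searched on both strands, and none of the matches overlapped another. NF-kB was searched by its 10-letter consensus and AP-1, the Fos and Jun dimer, as TGANTCA. The letters AGATAA stood for GATA factors, which steer type 2 immune cells among others. The core promoter element known as the TATA box was searched as TATAAA. Windows were also searched for CCAAT, the element bound by NF-Y. The letters used for ETS factors, which are common at housekeeping promoters, were CCGGAA. Il33 window 1 held a GATA match starting 209 bases before the start site and a CCAAT box starting 90 bases before it. Il33 window 2 held a TATA box starting 29 bases before its start site. The Il1rl1 window held the TATA letters only on the opposite strand, starting 246 bases before the start site, and Il1rap window 1 held an NF-kB consensus match on the opposite strand, starting 85 bases before the start site, and a CCAAT box starting 17 bases before it. Over all 33469 rat promoter windows, 11.6% held the GATA letters, 14.2% the TATA letters, 37.5% CCAAT, 5.02% the NF-kB consensus, 7.33% the AP-1 letters and 14.9% the ETS letters, and the last pair was in none of the printed windows. These matches are letters in a window and not binding sites, and transcript ends do not tell which Il33 start site was used. The Il1rap window had 75.3% G and C, against 47% and 41% in the Il33 windows and 42% in the Il1rl1 window.

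The 5 libraries held 49507 cell barcodes, of which 43408 passed the filters on depth and mitochondrial reads and 39797 were placed in 1 cell class by their markers. A class is named for the markers its cells carry, so "fibroblast" below means a fibroblast-like cell by Col1a1, Col3a1, Dcn, Lum and 4 further markers. Leading genes supported the class names except for the neutrophils, where only G0s2 was among the 10 leading genes beside Il1b, Ccl3 and Cxcl2, so they are called neutrophil-like. The libraries had a median of 4082 to 11650.5 unique molecular identifiers (UMIs, counted RNA molecules) per barcode, and each pair shared 11 to 41 barcodes, at most 0.382% of the smaller library. The 14 d library stood apart, with 25.5% of its barcodes over the mitochondrial limit and only 81 fibroblasts, against 3360 in control, 6919 on day 7, 610 on day 28 and 626 on day 60.

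Il33 and Il1rl1 were both carried mainly by fibroblasts, and from day 14 on they lay on opposite sides of control there. In fibroblasts, Il33 was 5.76-fold higher on day 14 and 2.30-fold higher on day 60 than in control, while Il1rl1 was 5.14-fold lower on day 7 and 142.8-fold lower on day 60. Il33 was also high in blood vessel endothelium, where Il1rl1 was scarce. Il1rap was low in every class except Schwann cells and neutrophil-like cells. Over all kept cells there were 16003 UMIs of Il33 in 4938 cells, 10844 of Il1rl1 in 2268 cells and 1614 of Il1rap in 1493 cells.

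**Figure D1:**
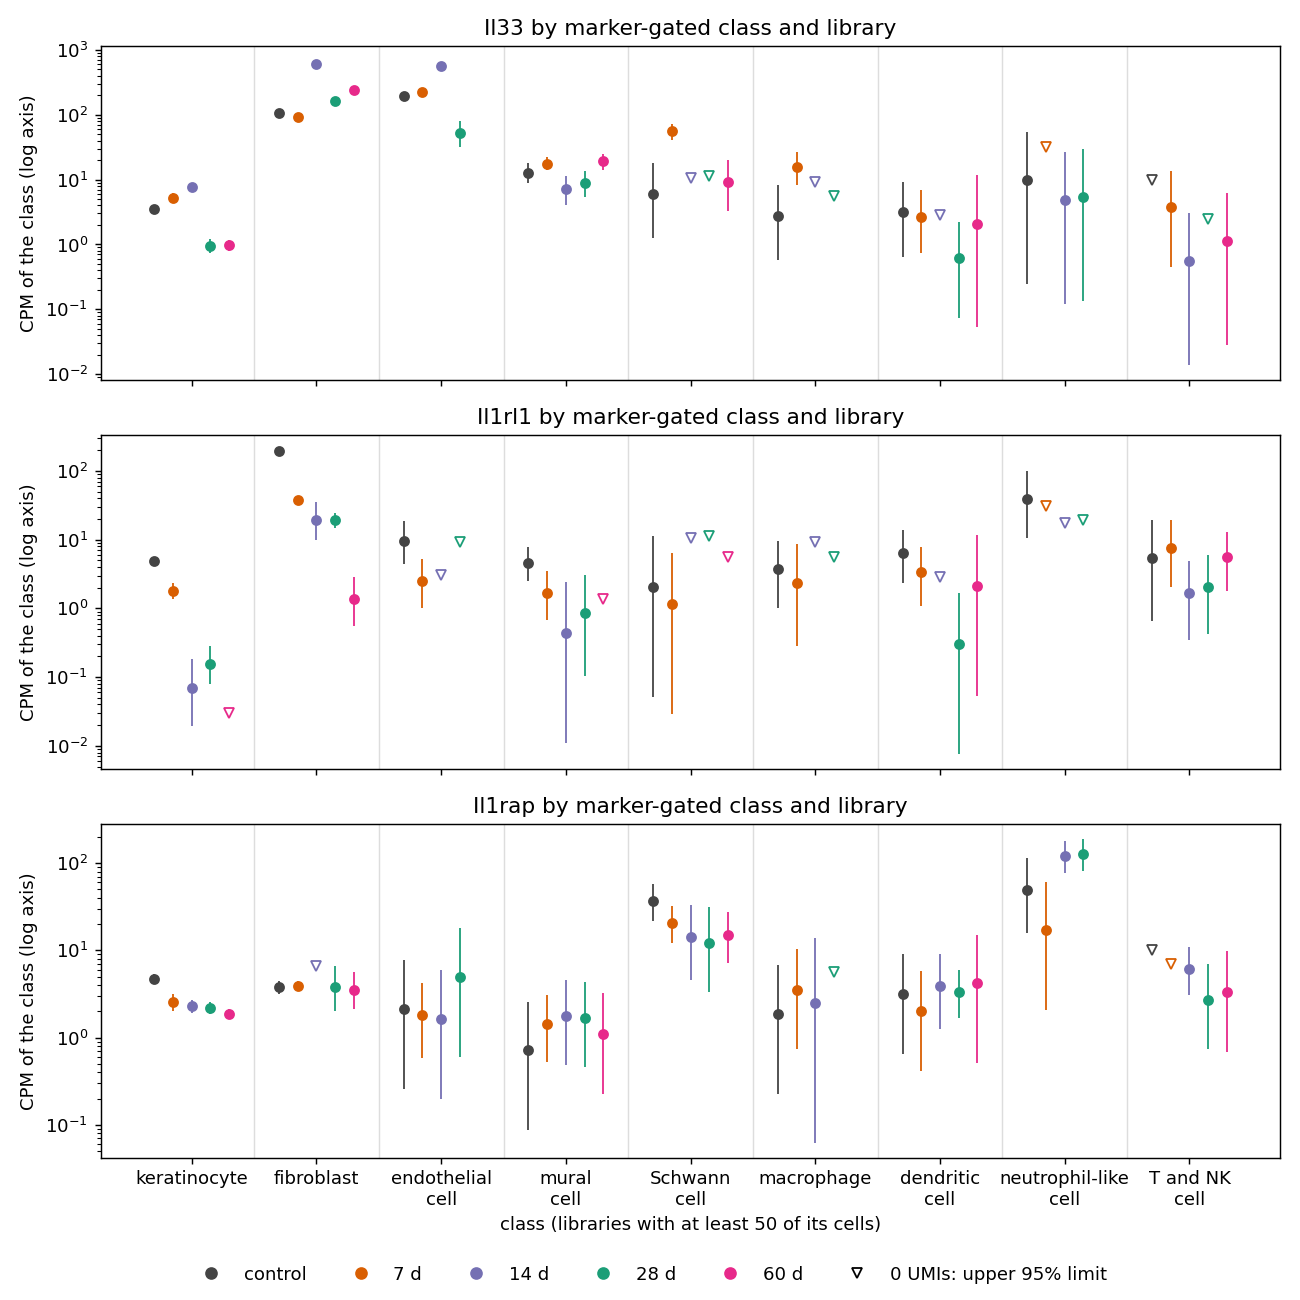
Level of Il33, Il1rl1 and Il1rap in 9 cell classes, in UMIs of the gene per 1000000 UMIs of the class (CPM, log axis), with 1 point per library of at least 50 cells; bars are exact Poisson 95% intervals for counting error and open triangles mark 0 UMIs at the upper limit. The fibroblast points for Il33 lie between 93.8 and 602 CPM, while those for Il1rl1 include 1.38 CPM on day 60, against 197 CPM in control. The panels are not for comparing levels between genes.

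The level is given as UMIs of the gene per 1000000 UMIs of the class (CPM). Il33 in fibroblasts stood at 105 CPM in control (95% interval 101 to 108), 93.8 on day 7 (91.5 to 96.2), 602 on day 14 (540 to 670), 165 on day 28 (152 to 180) and 241 on day 60 (228 to 255). No 2 of these 5 intervals overlap, so the order from high to low was 14 d, 60 d, 28 d, control and 7 d. The 14 d value came from 339 UMIs in 81 cells. Against control the ratios were 0.896 on day 7 (0.861 to 0.933), 5.76 on day 14 (5.14 to 6.43), 1.58 on day 28 (1.44 to 1.73) and 2.30 on day 60 (2.16 to 2.46). Il33 was thus past a 2-fold difference on days 14 and 60 and within it on days 7 and 28.

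The same direction was common among other genes of fibroblasts. Of the genes at 10 CPM or more in at least 1 of the 2 libraries compared, called tested genes here although no p-value was computed, 10.8% were at least 2-fold higher on day 14 (of 6971 genes), and 9.22% on day 60 (of 7107 genes). On day 14, 117 genes had a higher ratio than Il33, and on day 60 398 genes did. The share at least 2-fold higher was 3.11% on day 7 and 10.2% on day 28, where Il33 was not among them. The median log2 ratio over all tested genes of fibroblasts lay between -0.01 and 0.17 in the 4 comparisons.

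The share of fibroblasts with an Il33 UMI varied less than the level, at 33.5% in control (31.9 to 35.1), 32.6% on day 7 (31.5 to 33.7), 49.4% on day 14 (38.1 to 60.7), 34.4% on day 28 (30.7 to 38.3) and 44.6% on day 60 (40.6 to 48.6). Fibroblasts were not equally deep, with a median of 11774 UMIs in control, 9119 on day 7, 5789 on day 14, 4271 on day 28 and 6885 on day 60. After each cell was thinned to 1000 UMIs the share was 7.86% in control (6.94 to 8.85), 7.27% on day 7 (6.65 to 7.92), 28.8% on day 14 (18.8 to 40.6), 10.5% on day 28 (8.12 to 13.2) and 15.9% on day 60 (13.1 to 19.2). At equal depth the share therefore had the order of the level, with overlapping intervals for each pair of neighbours in that order. Cells with 10 or more Il33 UMIs made up 2.44% of fibroblasts in control, 1.14% on day 7, 11.1% on day 14, 1.48% on day 28 and 5.27% on day 60.

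Which cells held the Il33 molecules of a library depended on its make-up as well as on the level. Fibroblasts held 86.5% of the 4609 Il33 UMIs in control, 81.5% of 7590 on day 7, 23.0% of 1477 on day 14, 79.8% of 704 on day 28 and 75.4% of 1623 on day 60. On day 14, endothelial cells held 45.4% and keratinocytes 29.5%. The 14 d library was the only one of the 5 in which fibroblasts did not hold most Il33 UMIs. Fibroblasts made up 1.85% of its kept cells, against 33.1% in control, 61.2% on day 7, 6.75% on day 28 and 7.32% on day 60. Whether these shares reflect the skin or what the digestion released cannot be told apart.

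Over a whole library, Il33 stood at 41.2 CPM in control, 66.7 on day 7, 22.0 on day 14, 8.30 on day 28 and 11.9 on day 60. The library with the highest Il33 in fibroblasts, 14 d, was therefore not the library with the most Il33 per UMI, which was 7 d with its high share of fibroblasts. Il1rl1 over a whole library stood at 71.9 CPM in control, 23.4 on day 7, 0.552 on day 14, 1.12 on day 28 and 0.102 on day 60. In such pooled values fewer cells of a type and less RNA per cell cannot be told apart.

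**Figure D2:**
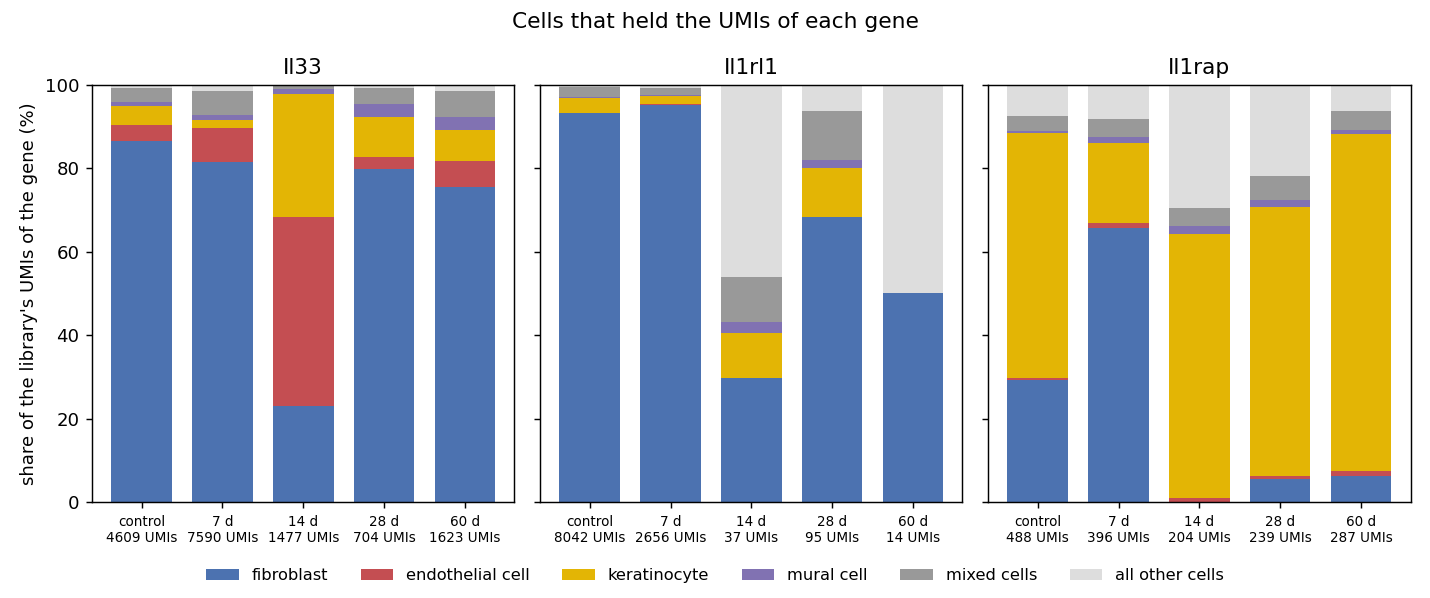
Share of the UMIs of Il33, Il1rl1 and Il1rap in each library that each cell class held, as stacked bars in percent. Fibroblasts fill most of the bar for Il33 (86.5% in control) and Il1rl1 (93.2% in control), except on day 14 for both genes and on day 60 for Il1rl1, where they hold 7 of 14 UMIs.

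Endothelial cells were the other strong carrier of the ligand. Il33 in endothelium stood at 193 CPM in control (166 to 223), 223 on day 7 (206 to 242), 554 on day 14 (513 to 597) and 52.1 on day 28 (32.3 to 79.7), and on day 60 46 cells gave 391.6 CPM. The 7 d and control intervals overlap, 14 d lay above both and 28 d below both. The ratios to control were 1.16 on day 7 (0.978 to 1.37), 2.87 on day 14 (2.43 to 3.41) and 0.270 on day 28 (0.163 to 0.426), the last being 3.70-fold lower. These ratios take blood vessel and lymphatic cells together. In blood vessel cells alone the day 14 ratio was 1.96 (1.65 to 2.33), within 2-fold. On day 7 the blood vessel cells stood at 399 CPM, against 285 CPM in control, and the interval of that ratio (1.18 to 1.67) excludes 1. On day 28 their ratio was 0.314 (0.189 to 0.495), past 2-fold lower as in the whole class. Of the endothelial genes tested, 12.2% were at least 2-fold higher on day 14 and 12.4% at least 2-fold lower on day 28, while 7.62% were higher on day 7, when Il33 was within 2-fold.

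Single endothelial cells carried many of these molecules. The richest cell held 58 of the 179 UMIs in control, 57 of 615 on day 7, 62 of 671 on day 14 and 4 of 21 on day 28. When each cell was given equal weight, the log2 ratio on day 14 was 0.75 in place of 1.52. Thinned to 1000 UMIs, 10.4% of endothelial cells had an Il33 UMI in control (5.65 to 17.1), 14.7% on day 7 (10.4 to 19.96), 24.8% on day 14 (19.1 to 31.2) and 5.33% on day 28 (1.47 to 13.1). Fibroblast markers, summed over the 8 markers, stood in endothelial cells at 2373 CPM in control, 2202 on day 7, 60.2 on day 14 and 166 on day 28, and their part in the Il33 values was not tested.

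Within endothelium, Il33 was on the blood vessel side. Endothelial cells were split by lymphatic markers such as Prox1, the factor that sets lymphatic identity. In control, Il33 stood at 285 CPM in 115 blood vessel cells and 12.7 CPM in 35 lymphatic cells, a 22.5-fold difference (8.63 to 83.4). On day 7 it stood at 399 CPM in 145 blood vessel cells and 64.8 CPM in 97 lymphatic cells, 6.17-fold (4.94 to 7.76), with 37 of the 94 lymphatic UMIs in 1 cell. On day 28 there were 89.6 CPM in 57 blood vessel cells and no UMI in 20 lymphatic cells. With the lymphatic cells set to a floor of 3 counts the ratio was 5.03, and the lower limit of its interval was 3.74. The direction was the same in each of these 3 libraries, and on days 14 and 60 the lymphatic cells numbered 3 and 5.

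Keratinocytes held little Il33 per UMI in all 5 libraries, at 3.53 CPM in control, 5.24 on day 7, 7.69 on day 14, 0.960 on day 28 and 0.970 on day 60. All these values were under the 10 CPM asked of a tested gene. The ratios to control were 1.48 on day 7 (1.20 to 1.83), 2.18 on day 14 (1.85 to 2.58), 0.272 on day 28 (0.203 to 0.359) and 0.275 on day 60 (0.218 to 0.345). The 7 d value rested on few cells, with 50 of the 156 UMIs in 1 cell, and its log2 ratio was -0.09 when each cell had equal weight. For the other 3 ratios the direction was the same under each processing alternative tried. Keratinocytes were deepest on day 14, with a median of 24325 UMIs against 10799 in control.

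On day 14 the keratinocyte Il33 was concentrated in basal cells, the dividing layer that rests on the basement membrane. Basal keratinocytes held 375 of the 436 keratinocyte UMIs on day 14 and stood at 20.7 CPM, against 4.20 CPM in control basal cells, 4.94-fold higher (4.10 to 5.98). The basal level was 5.54 CPM on day 7, 1.52 on day 28 and 1.17 on day 60. Suprabasal cells stood at 1.18 CPM in control, 4.57 on day 7, 1.55 on day 14, 0.170 on day 28 and 0.392 on day 60, and hair follicle keratinocytes at 0.931 to 4.92 CPM. On day 14, keratinocytes with 3 or more UMIs of Krt15, a keratin of resting basal and bulge cells, held 20.4 CPM in 476 cells, against 3.67 CPM in 1401 cells with none, 5.55-fold (4.48 to 6.90). On day 28 the ratio was 3.04 (1.21 to 9.79), while it was 0.582 in control (0.277 to 1.47), 0.465 on day 7 (0.238 to 1.04) and 0.972 on day 60 (0.506 to 2.09), with intervals that include 1. Krt15 was chosen for this split after its values were seen.

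Free RNA from broken cells gives UMIs in cells that do not express a gene, and keratinocytes held fibroblast transcripts in every library. The keratinocyte level of Il33 was 3.38% of the fibroblast level in control, 5.59% on day 7, 1.28% on day 14, 0.580% on day 28 and 0.403% on day 60. For Dcn, a collagen-binding proteoglycan of fibroblasts, the same percentage was 1.21% in control, 2.47% on day 7, 0.027% on day 14, 0.254% on day 28 and 0.304% on day 60. For Col1a1, the main collagen chain, it was 1.02% in control, 2.40% on day 7, 0.015% on day 14, 0.277% on day 28 and 0.205% on day 60. In all 5 libraries the Il33 percentage was above those of Dcn and Col1a1. On day 14 endothelial cells held the largest share of the Il33 UMIs, and the part of free RNA from them or from fibroblasts in the keratinocyte values was not tested.

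T and NK cells, which are not known as a source of Il33, served as the background class. They held 0 Il33 UMIs in 78 cells in control, which allows a share of up to 3.85%, then 2 UMIs in 106 cells on day 7, 1 in 426 on day 14, 0 in 748 on day 28 and 1 in 231 on day 60. Their median depth was 1736.5 to 4827.5 UMIs, and that of fibroblasts 4271 to 11774. T and NK cells stood at 3.77 CPM of Il33 on day 7, 0.554 on day 14 and 1.11 on day 60. Keratinocytes had 5.24, 7.69 and 0.970 CPM at these times. With 2 UMIs on day 7 and 0 in control, T and NK cells gave no background clearly below the keratinocyte level in these libraries. In the remaining classes Il33 was low, at 7.06 to 19.0 CPM in mural cells of the vessel wall and 0 to 15.4 CPM in macrophages. Schwann cells, the glia of skin nerves, reached 55.1 CPM on day 7, with 41 of their 48 UMIs in 1 cell, against 6.10 CPM in control.

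The fibroblasts that carried Il33 differed from the rest in other genes. In control, fibroblasts with 2 or more UMIs of Pi16, a secreted peptidase inhibitor that marks adventitial fibroblasts in mouse, held 232 CPM of Il33, against 69.2 CPM in those with none, 3.35-fold (3.13 to 3.58). On day 7 the values were 199 and 66.8 CPM, 2.98-fold, and on day 60 they were 303 and 233 CPM, 1.30-fold (1.11 to 1.51). On day 28 they were 218 and 158 CPM, with an interval of the ratio that includes 1 (0.985 to 1.89). The difference between fibroblasts with and without Pi16 was thus smaller on days 28 and 60 than in control, by the intervals of the ratios.

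Dpp4, a cell surface peptidase of the same mouse fibroblasts, gave a like split in each library with enough cells. Il33 stood at 167 CPM with 2 or more Dpp4 UMIs and 67.4 CPM with none in control, at 152 and 63.5 CPM on day 7, at 320 and 147 CPM on day 28, and at 426 and 200.5 CPM on day 60, ratios of 2.13 to 2.48. Fibroblasts with 2 or more UMIs of Cilp, a matrix protein of cartilage and tendon, had less Il33 in 3 of the 4 libraries compared. They held 47.1 CPM, against 157 CPM without Cilp, in control, 58.4 and 150 CPM on day 7, 151 and 171 CPM on day 28, and 120 and 347 CPM on day 60, and the interval of the day 28 ratio includes 1 (0.723 to 1.07). The genes for these splits were chosen after values were seen, and the deeper a cell the more often it passes such a limit.

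**Figure D3:**
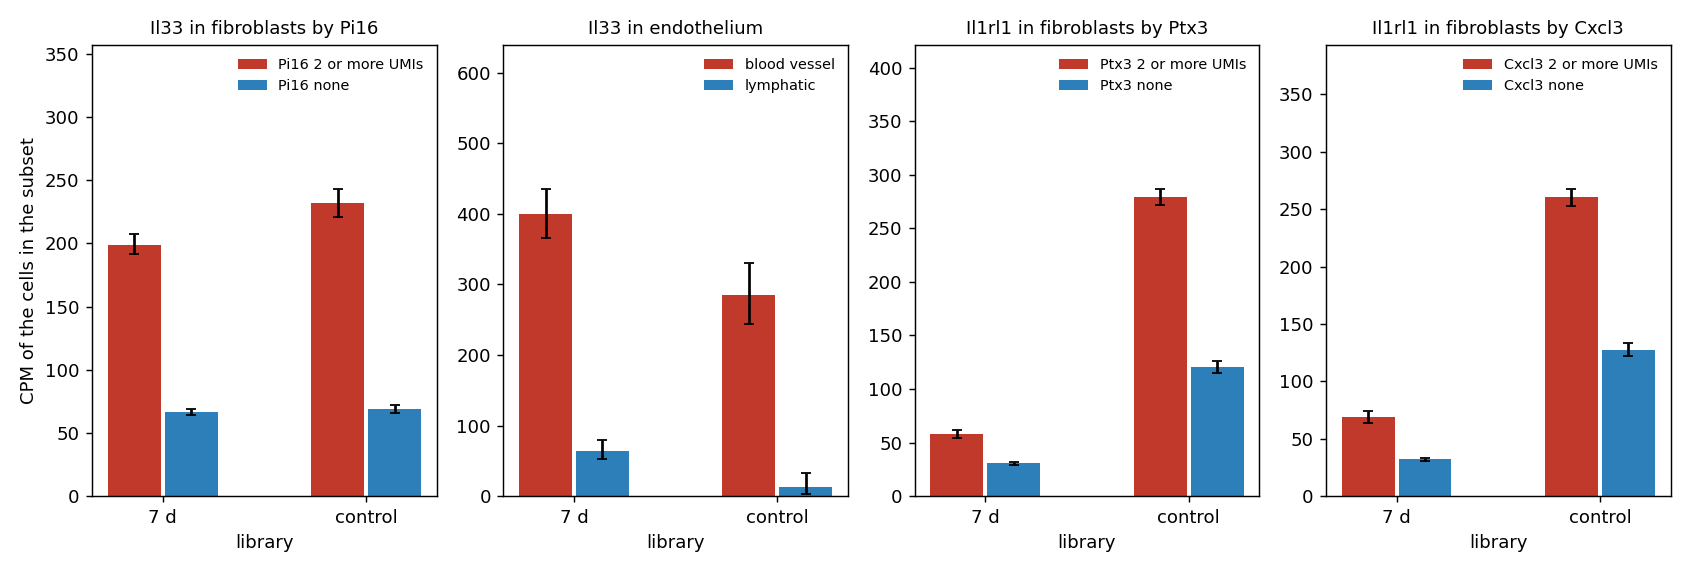
Level of Il33 or Il1rl1 (CPM) in subsets of cells on day 7 and in control, with exact Poisson 95% intervals: Il33 in fibroblasts with 2 or more Pi16 UMIs and with none, Il33 in blood vessel and lymphatic endothelium, and Il1rl1 in fibroblasts with 2 or more UMIs of Ptx3 or Cxcl3 and with none. In each of the 8 pairs the first subset named is the higher one, by 1.89-fold to 22.5-fold.

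Most molecules of the receptor gene were found in fibroblasts of the 7 d and control skin. Il1rl1 in fibroblasts stood at 197 CPM in control (192 to 201), 38.3 on day 7 (36.8 to 39.8), 19.5 on day 14 (9.76 to 35.0), 19.1 on day 28 (14.8 to 24.4) and 1.38 on day 60 (0.554 to 2.84). The order was control, 7 d, then 14 d and 28 d, which overlap, and last 60 d. The counts behind these levels were 7494, 2526, 11, 65 and 7 UMIs in the same order. The ratio to control was 0.195 on day 7 (0.186 to 0.204), 0.0994 on day 14 (0.0496 to 0.178), 0.0972 on day 28 (0.0750 to 0.124) and 0.00700 on day 60 (0.00281 to 0.0144). Il1rl1 was at least 2-fold lower than control at all 4 times.

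Few genes of fibroblasts were lowered as far. At least 2-fold lower levels were found for 1.5% of tested genes on day 7, 9.81% on day 14, 4.75% on day 28 and 6.4% on day 60. A lower ratio than that of Il1rl1 was found for 9 of 6722 genes on day 7, 6 of 6971 on day 14, 10 of 7142 on day 28 and 0 of 7107 on day 60. For these ranks a gene with no UMI in the irradiated library was set to 3 counts. That floor limited how low genes of a low control level could rank, most of all on day 14. The share of fibroblasts with an Il1rl1 UMI was 30.5% in control (29.0 to 32.1), 10.8% on day 7 (10.0 to 11.5), 4.94% on day 14 (1.36 to 12.2), 1.80% on day 28 (0.904 to 3.20) and 0.319% on day 60 (0.0387 to 1.15). At an equal depth of 1000 UMIs the share was 11.4% in control, 2.76% on day 7, 1.37% on day 14, 0.676% on day 28 and 0 of 577 cells on day 60, where the interval reaches 0.637%.

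Fibroblasts rich in the receptor were few or undetected from day 14 on. Fibroblasts with 5 or more Il1rl1 UMIs numbered 425 in control (12.6%), 158 on day 7 (2.28%), 1 on day 14, 4 on day 28 and 0 on day 60. The richest cell held 60 UMIs on day 7 and 77 in control. On day 28, 1 cell held 26 of the 65 UMIs, and when each cell had equal weight the log2 ratio to control was -4.99 in place of -3.36 on day 28 and -2.45 in place of -3.33 on day 14. The ordering of 14 d and 28 d therefore rests on a few cells.

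**Figure D4:**
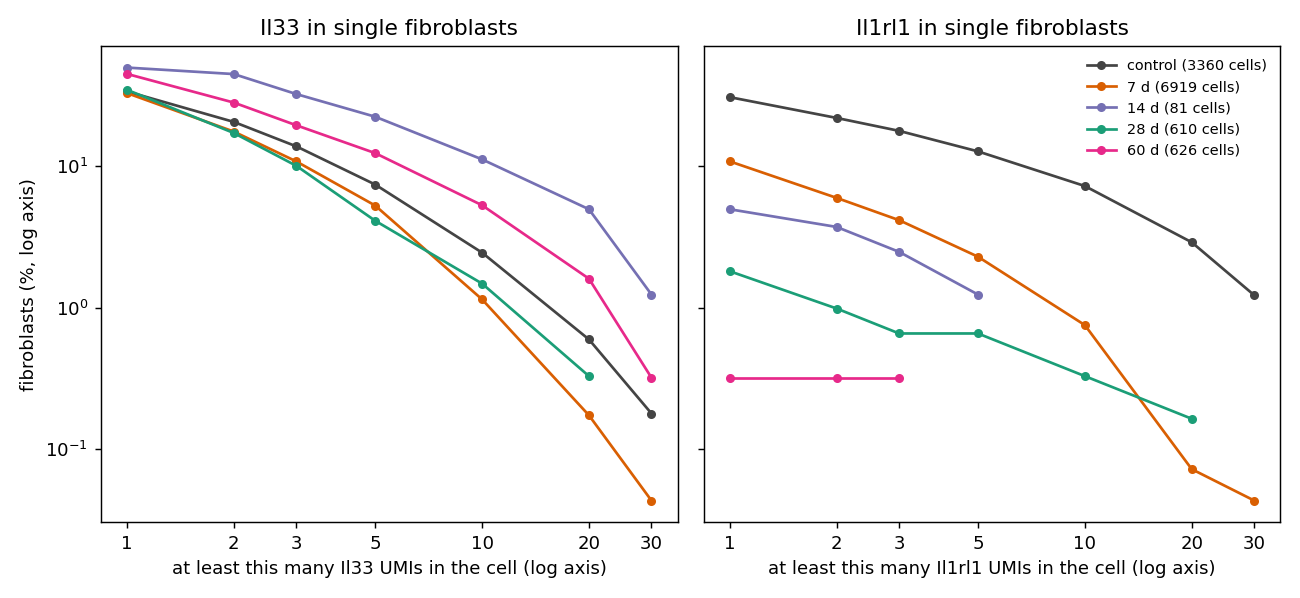
Percent of fibroblasts with at least 1, 2, 3, 5, 10, 20 or 30 UMIs of Il33 or Il1rl1 in each library, on log axes. For Il1rl1 the control curve lies highest (on day 7 2.28% of cells have 5 or more UMIs, against 12.6% in control), and for Il33 the 14 d curve does (11.1% at 10 or more UMIs, against 2.44% in control).

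Ptx3, a secreted pentraxin of inflamed stroma, and Cxcl3, a chemokine that draws neutrophils, marked the fibroblasts with more receptor. Il1rl1 stood at 279 CPM in control fibroblasts with 2 or more Ptx3 UMIs and 121 CPM in those with none, 2.31-fold (2.19 to 2.44). On day 7 the values were 57.8 and 30.6 CPM, 1.89-fold, and on day 28 they were 51.2 and 9.84 CPM, 5.20-fold (3.05 to 9.08), from 41 and 23 UMIs. Most of these 41 UMIs lay in 1 cell, so the size of the day 28 ratio rests largely on that cell. With Cxcl3 in place of Ptx3, Il1rl1 stood at 68.9 and 32.0 CPM on day 7, 2.15-fold, and at 260 and 127 CPM in control, 2.04-fold. Fibroblasts with 2 or more Pi16 UMIs, which had more Il33, had less Il1rl1, with 32.4 CPM against 39.5 CPM without Pi16 on day 7 and 147 against 210 CPM in control. On both sides of each of these splits, the 7 d level was below the control level. Ptx3 and Cxcl3 were chosen after their values were seen.

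Several of the genes that went with the receptor were themselves lower in irradiated fibroblasts, and Mmp3 and Il6 were not at every time. Cxcl3 stood at 2546 CPM in control, 342 on day 7, 320 on day 14, 89.7 on day 28 and 22.0 on day 60. Ptx3 stood at 960 CPM in control, 281 on day 7, 244 on day 14, 290 on day 28 and 89.0 on day 60. Cxcl1, a neutrophil chemokine, stood at 13729 CPM in control, 6947 on day 7, 4665 on day 14, 4248 on day 28 and 4488 on day 60. Vcam1, an adhesion molecule, stood at 192 CPM in control, 89.1 on day 7, 99.5 on day 14, 127 on day 28 and 127 on day 60. Mmp3, a matrix protease that was also higher in fibroblasts with the receptor, stood at 141 CPM in control, 208 on day 7, 483 on day 14, 599.6 on day 28 and 28.5 on day 60, and Il6 was highest on day 14, at 1336 CPM against 861 CPM in control. Their part in the Il1rl1 result was not tested. Keratinocyte markers, summed over 13 markers, stood in fibroblasts at 1421 CPM in control, 1074 on day 7, 1432 on day 14, 3083 on day 28 and 2302 on day 60, and endothelial markers at 8.89 to 25.7 CPM, with 6 of 10 at 0 on day 14.

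The genes that differed most between fibroblasts with 2 or more UMIs of a member and those with none, in control, were chosen after the values were seen. Beside Il33, Pi16 stood at 565 CPM against 63.8 CPM, Apod, a lipid carrier, at 4167 against 1244 CPM, and C7, a complement component, at 129 against 36.5 CPM. Lower beside Il33 were Fmod, a collagen-binding proteoglycan, at 11.1 against 122 CPM, Cilp at 220.5 against 1224 CPM and Thbs4, a matrix protein of tendon, at 52.2 against 267 CPM. Beside Il1rl1, Mmp3 stood at 245 against 88.3 CPM, Vcam1, an adhesion molecule for leukocytes, at 312 against 142 CPM and Cxcl1, a neutrophil chemokine, at 20507 against 10693 CPM. Lower beside Il1rl1 were Apod at 141 against 3098 CPM and Fos, an immediate early gene, at 691 against 2051 CPM. Apod was thus higher beside the ligand and lower beside the receptor in control. The compared cells differed in depth, with medians of 14446.5 against 9773 UMIs for Il33 and 14456.5 against 10230 for Il1rl1. When fibroblasts were split by Apod itself, 2 or more UMIs against none, the Il33 ratio was 1.24 in control (1.12 to 1.36). It was 0.713 on day 7 (0.673 to 0.757), the other direction, 1.79 on day 28 and 2.05 on day 60.

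Ligand and receptor were nonetheless found in the same fibroblasts at times. Both genes had a UMI in 368 of 3360 fibroblasts in control (10.95%), 305 of 6919 on day 7 (4.41%), 0 of 81 on day 14, which allows up to 3.70%, 6 of 610 on day 28 (0.984%) and 0 of 626 on day 60, which allows up to 0.479%. In control, 32.7% of fibroblasts with an Il33 UMI had an Il1rl1 UMI, against 29.5% of those without. After thinning to 1000 UMIs the shares were 8.03% (4.98 to 12.1) and 11.7% (10.5 to 12.9), so the direction turned at equal depth and the intervals overlap. On day 7 the thinned shares were 3.77% and 2.68%.

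Outside fibroblasts Il1rl1 was scarce. Keratinocytes stood at 4.83 CPM in control, 1.81 on day 7, 0.0706 on day 14, 0.158 on day 28 and 0 on day 60, which is 4.74% of the fibroblast level on day 7 and 2.46% in control. Endothelial cells held 9.70 CPM in control, 2.54 on day 7 and no UMI on days 14 and 28. Neutrophil-like cells stood at 0 on days 7, 14 and 28, against 38.9 CPM in control from 4 UMIs (10.6 to 99.7). Mural cells had at most 1.67 CPM after irradiation, against 4.63 CPM in control. In control, 256 of 4704 keratinocytes had an Il1rl1 UMI (5.44%, 4.81 to 6.13) and 14 had 2 or more, at a median depth of 10799 UMIs, against 11774 in fibroblasts. The control values of keratinocytes, mural cells and T and NK cells (5.42 CPM) lay close together. In each of these classes but T and NK cells the level was highest in control, as it was in the fibroblasts, and the part of free fibroblast RNA was not tested.

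T and NK cells held 2 Il1rl1 UMIs in 78 cells in control, 4 in 106 on day 7, 3 in 426 on day 14, 3 in 748 on day 28 and 5 in 231 on day 60, which is 5.42, 7.53, 1.66, 2.04 and 5.57 CPM. On day 60 these 5 UMIs were 35.7% of all 14 Il1rl1 UMIs of the library. T and NK cells with a UMI of Foxp3, the factor that defines regulatory T cells, held 4 of them in 8 cells on day 60 (157 CPM, 42.7 to 401), with 3 of the 4 in 1 cell, against 1.15 CPM without Foxp3. On day 14, Foxp3 cells held 2 UMIs in 26 cells (14.0 CPM), against 0.601 CPM in the others. These counts are too small to order the libraries.

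Mast cells, known for high ST2, were rare. They held 0 Il1rl1 UMIs in 41 cells in control, where the upper limit is 49.8 CPM, 1 in 30 on day 7 (14.9 CPM, 0.378 to 83.2), 6 UMIs in 4 of 10 cells on day 14 (207 CPM, 76.1 to 451) and 0 in 4 and 3 cells on days 28 and 60. Of the 37 Il1rl1 UMIs of the 14 d library, mast cells held 6, fibroblasts 11, keratinocytes 4 and T and NK cells 3. The mast cell interval of day 14 lies above the control limit and overlaps that of day 7.

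Il1rap, the shared co-receptor, was low and spread over many classes. In keratinocytes it stood at 4.71 CPM in control, 2.55 on day 7, 2.28 on day 14, 2.21 on day 28 and 1.88 on day 60, ratios to control of 0.542 (0.415 to 0.69998), 0.483, 0.468 and 0.398. These keratinocyte values were all under the 10 CPM asked of a tested gene. Of tested keratinocyte genes, 26.8% were at least 2-fold lower on day 14, 10.4% on day 28 and 12.2% on day 60. Among the processing alternatives the log2 ratio of Il1rap reached -0.63 on day 14 and -0.68 on day 28, both within 2-fold. In fibroblasts Il1rap stood at 3.75 CPM in control, 3.94 on day 7, 3.82 on day 28 and 3.54 on day 60, and no UMI was found in the 81 cells on day 14, where the upper limit is 6.56 CPM. The co-receptor thus showed no order over time in fibroblasts, unlike Il1rl1. Keratinocytes held 63.2% of the Il1rap UMIs on day 14 and 80.8% on day 60, when they made up 49.2% and 77.5% of kept cells. On day 7 keratinocytes held 19.2% and fibroblasts 65.7% of the Il1rap UMIs, at 16.2% and 61.2% of kept cells. These shares thus went with the make-up of each library.

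Schwann cells and neutrophil-like cells had the highest Il1rap. Schwann cells stood at 36.6 CPM in control (21.7 to 57.8), 20.7 on day 7, 14.2 on day 14, 12.1 on day 28 and 15.1 on day 60, from 4 to 18 UMIs each. The ratios on days 14, 28 and 60 were past 2-fold lower, as were 18.4%, 18.8% and 16.7% of tested genes in that class. Their intervals include 1 on day 14 (0.113 to 1.09) and day 28 (0.0816 to 1.01) but not on day 60 (0.170 to 0.942). Each was within 2-fold under 1 processing alternative, at a log2 ratio of -0.96 on day 14 and -0.65 on day 60 with mixed cells kept and -0.89 on day 28 with equal weight per cell. Neutrophil-like cells stood at 48.6 CPM in control (15.8 to 114), 17.0 on day 7, 120.0 on day 14 (77.7 to 177) and 127 on day 28 (81.5 to 189). The ratio to control was 2.47 on day 14 (0.928 to 8.25) and 2.62 on day 28 (0.978 to 8.78), so neither interval excludes 1. On day 7 the 17.0 CPM came from 2 UMIs, and 15.2% of genes tested were at least 2-fold lower. Of the genes tested in that class, 10.3% were at least 2-fold higher on day 14 and 11.4% on day 28.

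Among the other IL-1 family receptors in fibroblasts, Il1r2, a decoy receptor that binds IL-1 without signalling, stayed within 2-fold of control. It stood at 306 CPM in control, 456 on day 7, 487 on day 14, 313 on day 28 and 379 on day 60. Il1r1, the signalling IL-1 receptor, stood at 33.6 CPM in control, 18.6 on day 7, 10.7 on day 14, 14.7 on day 28 and 11.2 on day 60. Of the 8 receptors listed, 3 were tested on day 7 and 2 at each later time. Il1rl2, the IL-36 receptor, was at least 2-fold higher on day 7, and Il1r1 at least 2-fold lower on days 14, 28 and 60. Of all tested genes 3.11% were higher on day 7, and 9.81%, 4.75% and 6.4% were lower on days 14, 28 and 60. The median log2 ratio of the tested receptors was 0.58 on day 7, -0.49 on day 14, -0.58 on day 28 and -0.63 on day 60, against 0.06, -0.01, 0.13 and 0.17 over all tested genes.

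**Figure D5:**
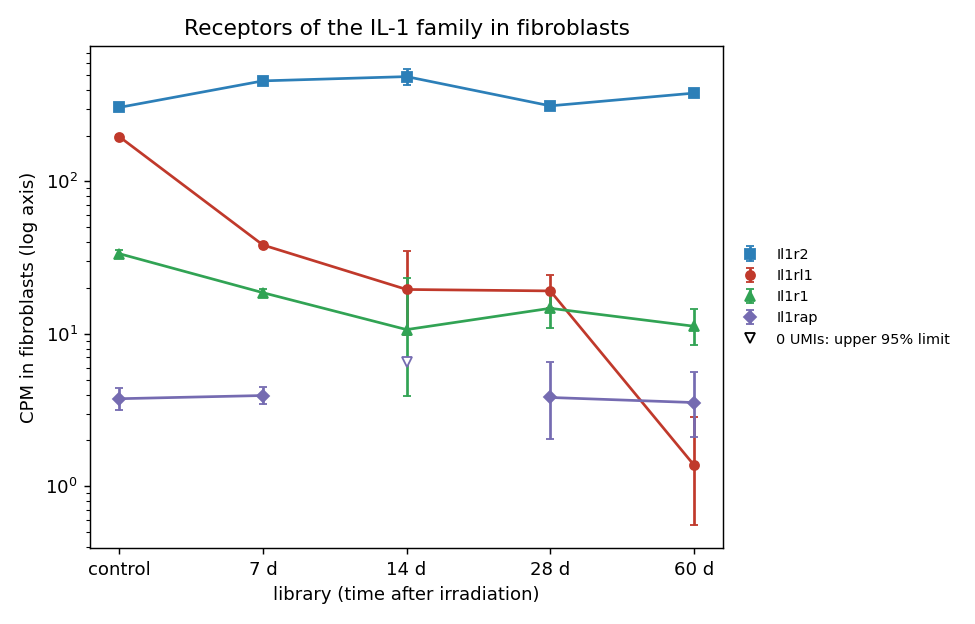
Level in fibroblasts of Il1r2, Il1rl1, Il1r1 and Il1rap (CPM, log axis) by library from control to 60 d, with exact Poisson 95% intervals; the open triangle marks 0 UMIs at the upper limit. Il1r2 stays between 306 and 487 CPM while Il1rl1 is at 1.38 CPM on day 60, against 197 CPM in control. Levels are to be read within a gene.

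Of the other IL-1 family ligands in fibroblasts, none reached 10 CPM on days 7 or 60, and 2 did on days 14 and 28, both at least 2-fold higher, as were 10.8% and 10.2% of all tested genes on these days. Il1b, the inflammasome cytokine, stood at 2.34 CPM in control, 7.94 on day 7, 56.9 on day 14, 17.9 on day 28 and 0 on day 60. Il1rn, the receptor antagonist, stood at 3.23 CPM in control, 2.44 on day 7, 10.7 on day 14, 12.7 on day 28 and 1.97 on day 60. In macrophages Il1b stood at 183 to 1834 CPM, and the part of leukocyte RNA in the fibroblast values was not tested. The median log2 ratio of the tested ligands was 3.16 on day 14 and 2.46 on day 28, against -0.01 and 0.13 over all tested genes. Of the proteases known to cut IL-33, 4 of 11 were tested in fibroblasts at each time and only Casp1 was past 2-fold, higher on day 60 (9.22% of all tested genes), with 34.6 CPM against 14.8 CPM in control. Capn2, a calpain, stood between 99.6 and 121.5 CPM in all 5 libraries. The median log2 ratio of the tested proteases was 0.19 to 0.61, against -0.01 to 0.17 over all tested genes.

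Of the 20 genes that carry the signal after the receptor, 16 or 17 were tested in fibroblasts, and 1 was at least 2-fold higher at each time, in each case Jun. Jun, a subunit of AP-1, stood at 1449 CPM in control, 5172 on day 7, 3826 on day 14, 6886 on day 28 and 7846 on day 60. At least 2-fold lower were 1 gene on day 7, 5 on day 14, 3 on day 28 and 4 on day 60, where 1.5%, 9.81%, 4.75% and 6.4% of all tested genes were. For the higher side these shares were 3.11%, 10.8%, 10.2% and 9.22%. Nfkb1, an NF-kB subunit, was among the lower genes each time, with 422 CPM in control, 157 on day 7, 139 on day 14, 86.8 on day 28 and 41.1 on day 60, and Irak2, a kinase next to MyD88, stood at 27.0 CPM in control, 18.1 on day 7, 8.89 on day 14, 9.12 on day 28 and 4.33 on day 60. Nfkbia, the NF-kB inhibitor, stood between 933 and 1572 CPM. The median log2 ratio of the tested signalling genes was -0.03 on day 7, -0.40 on day 14, 0.00 on day 28 and -0.41 on day 60, each below the median of all tested genes.

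Of 21 type 2 effectors and targets, 5 to 7 were tested in fibroblasts at each time. On day 7 0 were at least 2-fold higher and 2 lower, on day 14 3 higher and 1 lower, on day 28 1 higher and 0 lower, and on day 60 1 higher and 4 lower. The shares of all tested genes were 3.11% higher and 1.5% lower on day 7, 10.8% and 9.81% on day 14, 10.2% and 4.75% on day 28, and 9.22% and 6.4% on day 60. Ccl11, the eosinophil chemokine eotaxin, was the one higher on days 28 and 60, with 3.02 CPM in control, 2.45 on day 7, 17.8 on day 14, 32.4 on day 28 and 31.7 on day 60. Il6 stood at 861 CPM in control, 393 on day 7, 1336 on day 14, 659 on day 28 and 362 on day 60, and Cxcl2 at 60.6, 30.8, 343, 37.4 and 2.95 CPM. The median log2 ratio of the list had no steady direction, at -0.98 on day 7, 0.85 on day 14, -0.27 on day 28 and -1.23 on day 60, against 0.06, -0.01, 0.13 and 0.17 over all tested genes. The type 2 cytokines were nearly undetected in T and NK cells, with Il5 at 2 UMIs in control and 4 on day 28, Il13 at 1 UMI on day 28 and Il4 at 1 UMI on day 14. Of the 5 partner alarmins and receptors found, 2 were tested, Crlf2, a chain of the TSLP receptor, at 15.5 to 23.1 CPM, and Il17ra, which was at least 2-fold higher on day 14 only, with 72.9 CPM against 32.3 CPM in control (10.8% of all tested genes); the median log2 ratio of the pair was -0.19 to 0.87.

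In keratinocytes, Areg, a growth factor of the epidermis, stood at 185 CPM in control, 382 on day 7, 735 on day 14, 528 on day 28 and 162 on day 60. It was at least 2-fold higher on days 7, 14 and 28, and like basal Il33 it was highest on day 14. At least 2-fold higher levels were found for 5.7% of keratinocyte genes on day 7, 6.94% on day 14 and 3.97% on day 28. Of the 7 or 8 members of the type 2 list tested in keratinocytes, 1 was higher and 0 lower on day 7, 3 and 3 on day 14, 3 and 1 on day 28, and 0 and 3 on day 60, with median log2 ratios of -0.30, 0.09, 0.23 and -0.54. At least 2-fold higher on day 60 were 2.02% of all keratinocyte genes tested, and at least 2-fold lower were 3.6% on day 7, 26.8% on day 14, 10.4% on day 28 and 12.2% on day 60.

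The genes whose pattern was most like that of each member were found over 44 sums of a class in a library, among 6263 genes, by Pearson's correlation of log2(CPM + 10). The sums share libraries and classes, so the values describe likeness only. Most like Il33 were Bmp4 (0.90), a growth factor, Col8a1 (0.88), a collagen of vessel walls, Fgd5 (0.87), an endothelial exchange factor, and Efemp1 and Fbln2 (0.86 each), both matrix proteins of the fibulin family. Most like Il1rl1 were Fap (0.79), a fibroblast surface protease, Ptx3 (0.76), Gfpt2 (0.74), an enzyme of hexosamine synthesis, Mfap2 (0.74), a microfibril protein, and Has1 (0.70), a hyaluronan synthase. Ptx3, which split the fibroblasts by receptor level, was thus among them. Most like Il1rap were Atp7a (0.85), a copper transporter, Gk (0.84), glycerol kinase, and Samd8, Sry and Fem1c (0.81 to 0.84), values that rest on the neutrophil-like sums.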

How the data were processed

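The authors deposited UMI counts of every gene in every called cell, made per the submitters' processing notes on Rnor_6.0 by Seurat 3.1.1, Cell Ranger 5.0.0 and STAR; the files hold raw counts before any integration. Barcodes with at least 500 UMIs, 300 genes and at most 20% mitochondrial UMIs were kept. A cell was placed in 1 of 12 classes when at least 2 markers were detected, its score was at least 0.05 and the next class scored at most 0.6 of it; 91.7% of kept cells were placed, and 4.28% lay near that margin. Cells with markers of several classes were left out, and no doublet caller was run. The scoring was set after the cells were seen, and members, gene lists and splits were chosen with earlier results of these data known.

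UMIs were summed per class and library and given as CPM where a class had at least 50 cells (mast cells, Foxp3 cells and endothelium on day 60 are given with fewer). Each level has an exact Poisson interval, each ratio an exact conditional binomial interval and each share an exact Clopper-Pearson interval, all at 95%. A count of 0 was set to 3 counts in the ratio itself. For the largest share allowed, 0 cells of a total were set to 3 cells of it. With 1 library a group no test was made, and the share of genes past 2-fold, where at least 1 of the 2 libraries reached 10 CPM, serves as background. Shares were repeated with cells thinned to 1000 UMIs (seed 1). Named genes were the 3 members, the 1 or 2 genes of highest CPM in each list, the 5 most similar genes of each member, and others named as chosen later or because they were past 2-fold. The 2-fold rule and the ratio intervals were tried on UMI sums of the fibroblast class simulated with counting error only. The simulation held no spread between cells or libraries, so it could not check the intervals against such spread. Promoters came from RefSeq (GRCr8); counts and promoters are of different builds and were joined by symbol only. Python 3.11.15, numpy 2.4.6, scipy 1.17.1, pandas 2.3.3 and matplotlib 3.10.9 were used.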

Additional observations from a re-analysis of the deposited data

Results flagged for a closer look

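The 3 cases given here rest on summed counts. In each, Il33 was at least 2-fold higher than control at 1 irradiated time and at least 2-fold lower at another. None of these differences was tested because each time had 1 library. Il33 also lay on opposite sides of control elsewhere without passing 2-fold both ways. In fibroblasts, for example, the ratio was 0.896 on day 7 and 5.76 on day 14. In keratinocytes, Il33 was higher than control on day 14 and lower on day 28, and the log2 ratios differed by 3.003. Between 14 d and 60 d in keratinocytes the log2 ratios differed by 2.99. In endothelial cells, Il33 was higher than control on day 14 and lower on day 28, with log2 ratios that differed by 3.41. The higher side of these cases did not stay past 2-fold under each processing alternative. The day 14 log2 ratio was as low as 0.75 in endothelium and 0.75 in keratinocytes. In blood vessel cells alone the day 14 ratio was 1.96. All keratinocyte levels of Il33 were under the 10 CPM asked of a tested gene. Keratinocyte depth moved with these times, at a median of 24325 UMIs on day 14, 11114 on day 28 and 15739 on day 60, against 10799 in control, and its part in the result was not tested.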

How the results depend on the processing

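Of the 26 log2 ratios recomputed under the alternatives, 25 kept their sign. The exception was Il33 in keratinocytes on day 7, at 0.57 from summed counts and -0.086 as the mean of per-cell CPM. The mean of per-cell CPM also gave log2 ratios of 0.75 for Il33 in endothelium on day 14, 0.77 for Il33 in keratinocytes on day 14, and -2.26, -2.45, -4.99 and -8.66 for Il1rl1 in fibroblasts on days 7, 14, 28 and 60; in control it gave Il33 at 95.3 CPM in fibroblasts and 4.82 CPM in keratinocytes and Il1rl1 at 177 CPM in fibroblasts. Scaling without mitochondrial and ribosomal protein genes gave control levels of 124 CPM (Il33, fibroblasts), 237 CPM (Il33, endothelium), 5.13 CPM (Il33, keratinocytes) and 233 CPM (Il1rl1, fibroblasts). Keeping cells with mixed markers gave log2 ratios for Il33 of 0.47 in endothelium on day 7 and 0.75 in keratinocytes on day 14, and 4.57 CPM of Il33 in control keratinocytes. The cause of these moves was not tested. A stricter gate and a stricter barcode filter moved no level or ratio beyond its counting interval, but the stricter barcode filter took Il1rl1 in fibroblasts on day 14 to a log2 ratio of -4.17 in place of -3.33. With no floor on the level, 3719, 8958, 7009 and 6773 genes of fibroblasts were past 2-fold on days 7, 14, 28 and 60 in place of 310, 1435, 1068 and 1110, since genes of a few UMIs then enter. Of 33 shares, 28 moved beyond their interval with cells thinned to 1000 UMIs, by construction of fewer UMIs per cell. No paired analysis was possible because each group had 1 library. Depth limits Il1rl1 in fibroblasts, with 11 UMIs on day 14 and 7 on day 60, and Il1rap, with 0 UMIs in fibroblasts on day 14 and 4 to 18 UMIs in Schwann cells.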
